A study of Mus musculus with 12 samples.

Results

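The genes described here were 40 genes of the endoplasmic reticulum (ER) stress response, taken from a list of names. The list was chosen with earlier results of these data known. They were 22 ER chaperone and unfolded protein response genes (*hspa5* to *eif2ak3*, called the UPR genes below) and 18 ATF4 and amino acid response genes (*atf4* to *psph*, called the ATF4 genes). All 40 were found among 30705 gene names, and all 40 were among the 11282 genes that had a mean of at least 1 RPKM (read number scaled by transcript length and library size) over the 12 samples and were tested. The cells were a murine BrafV600E melanoma line derived from the C57BL/6 strain. Its mouse of origin was p16INK4a-/- and carried Braf+/LSL-V600E together with Tyr::CreERT2+/o, an inducible Cre under the tyrosinase promoter, so that all 4 groups share activated Braf and the loss of p16INK4a. RNA-seq was performed on 3 samples each of scramble control cells and of cells in which *ptgs1* (COX-1), *ptgs2* (COX-2), or *ptges* (mPGES-1) had been knocked out with CRISPR/Cas9 kits. The comparisons asked how far loss of each prostaglandin enzyme went along with a change in cultured cells, without a drug or an added ER stressor. Knockout cells were selected with puromycin and subcloned by limiting dilution, and the study describes the RNA samples both as independent samples and as different subclones. The p-values therefore measure the spread between these samples only. Loss of an enzyme and other differences between the selected lines cannot be told apart.

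When unfolded proteins build up in the ER, 3 membrane sensors respond, namely IRE1 (*ern1*), PERK (*eif2ak3*), and ATF6 (*atf6*). IRE1 splices the mRNA of the transcription factor XBP1, ATF6 is cut to release a transcription factor, and both raise chaperones, disulfide isomerases, and the machinery that removes misfolded proteins. PERK phosphorylates the translation factor eIF2, which lowers protein synthesis but favors translation of ATF4. Other kinases that sense a lack of amino acids reach the same factor, and ATF4 then raises genes of amino acid synthesis, uptake, and tRNA charging. Because ATF4 is controlled largely in translation, its mRNA is not a direct readout of its activity, and RPKM values do not separate spliced from unspliced *xbp1* mRNA.

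Sequence elements known for these pathways were looked for in reference promoters (RefSeq, GRCm38.p6, 250 bases before to 50 after each gene's start), on both strands. Because the elements are already tied to these pathways, their share among the members describes the reference. It is not a result of the expression values. Promoters were matched for 19 of the 22 UPR genes and 16 of the 18 ATF4 genes. The ER stress element, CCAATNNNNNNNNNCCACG, was present in 8 of 19 UPR genes and 0 of 16 ATF4 genes, against 0.137% of all 27025 genes in the table. The amino acid response element, TGATGNAA, was present in 5 of 16 ATF4 genes and in 1 of 19 UPR genes (*herpud1*), against 4.51% of all genes. The element TGACGTGG was found in 0 members of either list and in 0.714% of all genes. Parts of the ER stress element are common by themselves, since CCAAT was found in 41.1% and CCACG in 35.5% of all genes. The following ER stress elements belong to UPR genes whose values are given below, with the fixed letters in capitals and 10 bases on each side. They lie at chr2:34772015-34772053 (+ strand, *hspa5*), chr8:84847065-84847103 (+ strand, *calr*), chr11:50325790-50325828 (- strand, *canx*), chr15:88819510-88819548 (- strand, *creld2*), and chr19:6046522-6046560 (+ strand, *syvn1*).
Hspa5: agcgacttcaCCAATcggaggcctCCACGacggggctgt
Calr: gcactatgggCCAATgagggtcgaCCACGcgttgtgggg
Canx: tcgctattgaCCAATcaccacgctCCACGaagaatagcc
Creld2: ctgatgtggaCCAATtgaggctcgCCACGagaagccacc
Syvn1: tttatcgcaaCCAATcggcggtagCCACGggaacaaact

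The amino acid response elements of the 5 ATF4 genes are shown in the same way, because these genes are followed as a group below. They lie at chr2:152344029-152344056 (+ strand, *trib3*), chr2:119351039-119351066 (- strand, *chac1*), chr6:7693215-7693242 (- strand, *asns*), chr7:126625563-126625590 (+ strand, *nupr1*), and chr14:55540153-55540180 (- strand, *pck2*). A match of letters is a description and does not show that a factor binds there.
Trib3: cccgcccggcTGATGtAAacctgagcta
Chac1: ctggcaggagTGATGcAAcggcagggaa
Asns: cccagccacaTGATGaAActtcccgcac
Nupr1: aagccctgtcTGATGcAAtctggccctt
Pck2: tgtaagatacTGATGtAActttgaaggc

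The depth estimated from the steps between low values was 13.3 to 17.1 M reads per sample. In each knockout line the targeted mRNA was the lowest of the 4 lines and was still detected, with *ptgs1* at 14.3 to 16.9 RPKM in *ptgs1*-KO cells and 142 to 164 RPKM in scramble cells, *ptgs2* at 76.1 to 84.6 against 749 to 777 RPKM, and *ptges* at 34.8 to 41.0 against 75.0 to 79.8 RPKM. In *ptgs1*-KO cells *ptges* (51.5 to 56.9 RPKM, -0.50, limma, adjusted p = 0.0011) and *ptgs2* (502 to 668 RPKM, -0.36, adjusted p = 0.039) fell as well. The *ptgs1*-KO replicate 3 stood apart, because *rn45s* (45S pre-ribosomal RNA) and AK155692 held 13.5% of its summed values against 0.528% to 4.79% in the other samples. Of 9 melanocyte lineage markers, 4 (*sox10*, *tyrp1*, *dct*, and *mlana*) were listed at 0 in every sample, and *gpnmb* was the highest in every sample. The sum of the 9 was 19.4 to 20.9 RPKM in scramble, 50.6 to 58.5 in *ptgs1*-KO, 11.0 to 12.4 in *ptgs2*-KO, and 5.28 to 6.83 in *ptges*-KO cells. Most of it was *gpnmb*, with means of 15.9, 51.15, 8.38, and 3.43 RPKM. The other detected markers did not share its rise in *ptgs1*-KO cells. Their means there and in scramble cells were 2.54 and 2.68 (*mitf*), 0.71 and 0.98 (*tyr*), 0.54 and 0.54 (*pmel*), and 0.05 and 0.09 RPKM (*s100b*). *Pmel* was highest in *ptges*-KO cells (0.64 RPKM). The 7 fibroblast markers, of which *dcn* and *lum* were at 0 throughout, summed to 17.5 to 24.0, 24.0 to 35.4, 9.75 to 11.5, and 9.56 to 13.1 RPKM in the same order. These sums moved with the groups, and their part in the results below was not tested. The 6 leukocyte markers summed to at most 2.14 RPKM, the 3 endothelial markers to at most 0.17 RPKM, and the 3 keratinocyte markers were at 0.

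The members were well expressed. Scramble means of the UPR genes ran from 13.4 RPKM (*eif2ak3*) to 1446 RPKM (*hsp90b1*), with a median of 89.8 RPKM, and those of the ATF4 genes from 4.38 RPKM (*aldh1l2*) to 954 RPKM (*phgdh*), with a median of 91.6 RPKM. The median over all genes tested was 21.2 RPKM. The lists were ordered differently across the lines. The *ptgs2*-KO line had the highest mean for 12 of 22 UPR genes and the lowest for 10 of 18 ATF4 genes, whereas the *ptgs1*-KO line had the lowest mean for 12 UPR genes and the highest for 8 ATF4 genes. The *ptges*-KO line was lowest for 9 UPR genes and highest for 9 ATF4 genes. Over all genes tested, these lines were highest for 24.9% (*ptgs2*-KO), 29.6% (*ptgs1*-KO), and 24.8% (*ptges*-KO) and lowest for 20.2%, 24.2%, and 35.1%. Scramble cells were highest for 6 UPR and 0 ATF4 genes, against 20.7% of all genes tested. They were lowest for 0 UPR and 5 ATF4 genes, against 20.5%. In bulk RNA, fewer cells expressing a gene and less RNA per cell cannot be told apart.

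**Figure D1:**
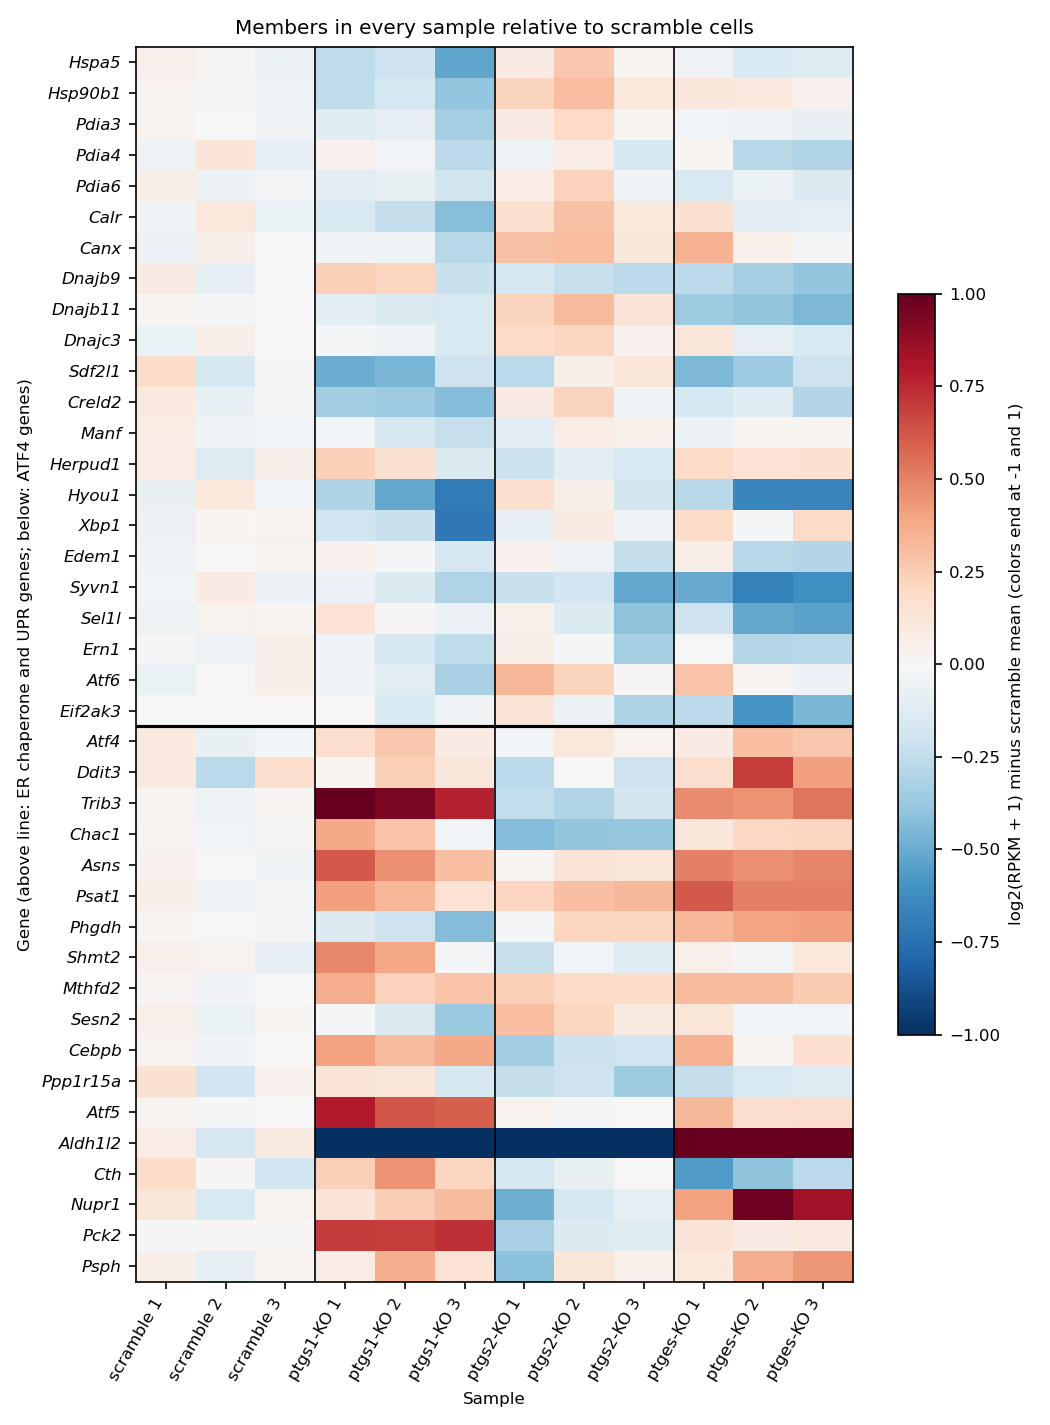
Heat map of the 40 genes (rows, UPR genes above the thick line) in the 12 samples (columns), colored by log2(RPKM + 1) minus the mean of the 3 scramble samples, with colors ending at -1 and 1. *Trib3*, *atf5*, and *pck2* are red in all 3 *ptgs1*-KO samples, *aldh1l2* is dark blue in *ptgs1*-KO and *ptgs2*-KO and dark red in *ptges*-KO samples, and *hyou1* is blue in *ptgs1*-KO and *ptges*-KO samples.

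More ATF4 genes rose than fell in *ptgs1*-KO and *ptges*-KO cells. In *ptgs1*-KO cells, 7 of 18 rose and 1 fell, against 4.65% of all genes tested that rose and 4.61% that fell (9.26% in all). In *ptges*-KO cells, 9 rose and 1 fell, against 11.9% and 14.4% (26.3% in all). In *ptgs2*-KO cells, 1 rose and 2 fell, against 5.97% and 5.17% (11.1% in all). The median log2 fold change of the list was 0.26 in *ptgs1*-KO, -0.11 in *ptgs2*-KO, and 0.26 in *ptges*-KO cells, and that of all genes tested was 0.01, 0.01, and -0.03. Called or not, 15, 7, and 16 of the 18 estimates were above 0. The samples of a knockout all lay above the scramble samples for 10, 3, and 12 ATF4 genes (13.7%, 19.4%, and 20.3% of all genes) and all below for 2, 6, and 1 (13.2%, 15.8%, and 23% of all genes). These comparisons share their scramble samples. Changes are log2 fold changes on the log2(RPKM + 1) scale with their standard errors, and a gene was counted as changed at an adjusted p under 0.05 (limma, Benjamini-Hochberg over all genes tested). Without the *ptgs1*-KO replicate 3, the counts of ATF4 genes that rose and fell were 8 and 1, 2 and 3, and 10 and 1 in the same order. In *ptgs2*-KO cells the scaling also moved the count, to 2 higher and 5 lower with median-ratio scaling and 1 higher and 5 lower with quantile normalization.

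Among the transcription factors of the list, *atf4* itself was not called in any line. It measured 532, 474, and 489 RPKM in scramble, 561, 599, and 528 in *ptgs1*-KO, 487, 535, and 511 in *ptgs2*-KO, and 525, 615, and 601 in *ptges*-KO samples. The groups overlapped, and the differences from scramble were 0.17, 0.04, and 0.22, each ± 0.09 (limma, adjusted p = 0.24, 0.82, and 0.078). *Atf5*, a related factor that is also controlled in translation, measured 127, 123, and 124 RPKM in scramble, 216, 192, and 190 in *ptgs1*-KO, 128, 123, and 125 in *ptgs2*-KO, and 156, 139, and 141 in *ptges*-KO samples. It rose by 0.67 ± 0.07 in *ptgs1*-KO cells (limma, adjusted p = 5.1e-05) and by 0.22 ± 0.07 in *ptges*-KO cells (adjusted p = 0.041), and the *ptgs2*-KO samples overlapped with the scramble samples. The smaller rise in *ptges*-KO cells was lost in 9 of 12 fits that each left out 1 library (any scramble or *ptges*-KO library, *ptgs1*-KO replicate 2, or *ptgs2*-KO replicate 2 or 3), with values of 0.16 to 0.25 and adjusted p of 0.052 to 0.13. It was also lost with scaling without the 20 highest genes (0.15, adjusted p = 0.11).

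*Ddit3*, which codes for the factor CHOP, measured 27.2, 20.8, and 28.7 RPKM in scramble, 25.7, 30.0, and 27.5 in *ptgs1*-KO, 20.9, 25.4, and 21.8 in *ptgs2*-KO, and 28.7, 41.6, and 34.0 in *ptges*-KO samples. It rose in *ptges*-KO cells by 0.43 ± 0.14 (limma, adjusted p = 0.040), although the lowest *ptges*-KO sample was almost level with the highest scramble sample. The call was lost without scramble replicate 1 or 2 or *ptges*-KO replicate 2 or 3, with values of 0.29 to 0.48 and adjusted p of 0.058 to 0.18. It was also lost without a filter on low values (adjusted p = 0.080), with only 2 groups in the model (0.077), and with scaling without the 20 highest genes (0.36, adjusted p = 0.060). *Nupr1*, a small stress-induced chromatin protein, measured 116, 96.4, and 110 RPKM in scramble, 117, 127, and 134 in *ptgs1*-KO, 76.0, 95.3, and 100 in *ptgs2*-KO, and 142, 211, and 192 in *ptges*-KO samples. It rose in *ptges*-KO cells by 0.74 ± 0.14 (limma, adjusted p = 0.0022), and all 3 samples were above every other sample of the series. *Cebpb*, a bZIP factor that pairs with ATF4, measured 19.6, 18.6, and 19.0 RPKM in scramble, 25.46, 23.92, and 25.03 in *ptgs1*-KO, 14.8, 16.3, and 16.4 in *ptgs2*-KO, and 24.6, 19.3, and 21.5 in *ptges*-KO samples. Its rise of 0.36 ± 0.09 in *ptgs1*-KO cells (limma, adjusted p = 0.024) was lost without any 1 scramble library or *ptgs1*-KO replicate 1 or 3 (0.34 to 0.38, adjusted p of 0.050 to 0.081).

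Among the feedback and stress regulators, *trib3*, a pseudokinase that restrains ATF4, gave the clearest steps between lines. It measured 49.5, 46.9, and 49.2 RPKM in scramble, 97.6, 94.1, and 83.6 in *ptgs1*-KO, 40.9, 39.1, and 42.7 in *ptgs2*-KO, and 67.9, 66.7, and 70.6 in *ptges*-KO samples. No sample overlapped with another line, and the order was *ptgs1*-KO, *ptges*-KO, scramble, *ptgs2*-KO. The rise was 0.90 ± 0.07 in *ptgs1*-KO (limma, adjusted p = 3.0e-06) and 0.49 ± 0.07 in *ptges*-KO cells (adjusted p = 0.00047), and the *ptgs2*-KO difference of -0.24 ± 0.07 did not pass the test (adjusted p = 0.051). *Chac1*, an enzyme that degrades glutathione, measured 103, 99.8, and 103 RPKM in scramble, 133, 124, and 100 in *ptgs1*-KO, 75.0, 77.8, and 78.2 in *ptgs2*-KO, and 110, 118, and 118 in *ptges*-KO samples. It fell in *ptgs2*-KO cells by 0.40 ± 0.09 on the log2 scale (limma, adjusted p = 0.012), where every sample was below all others. *Sesn2*, a leucine sensor of the mTORC1 pathway, and *ppp1r15a*, the eIF2 phosphatase subunit GADD34, were not called against scramble, with differences between -0.27 and 0.20.

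**Figure D2:**
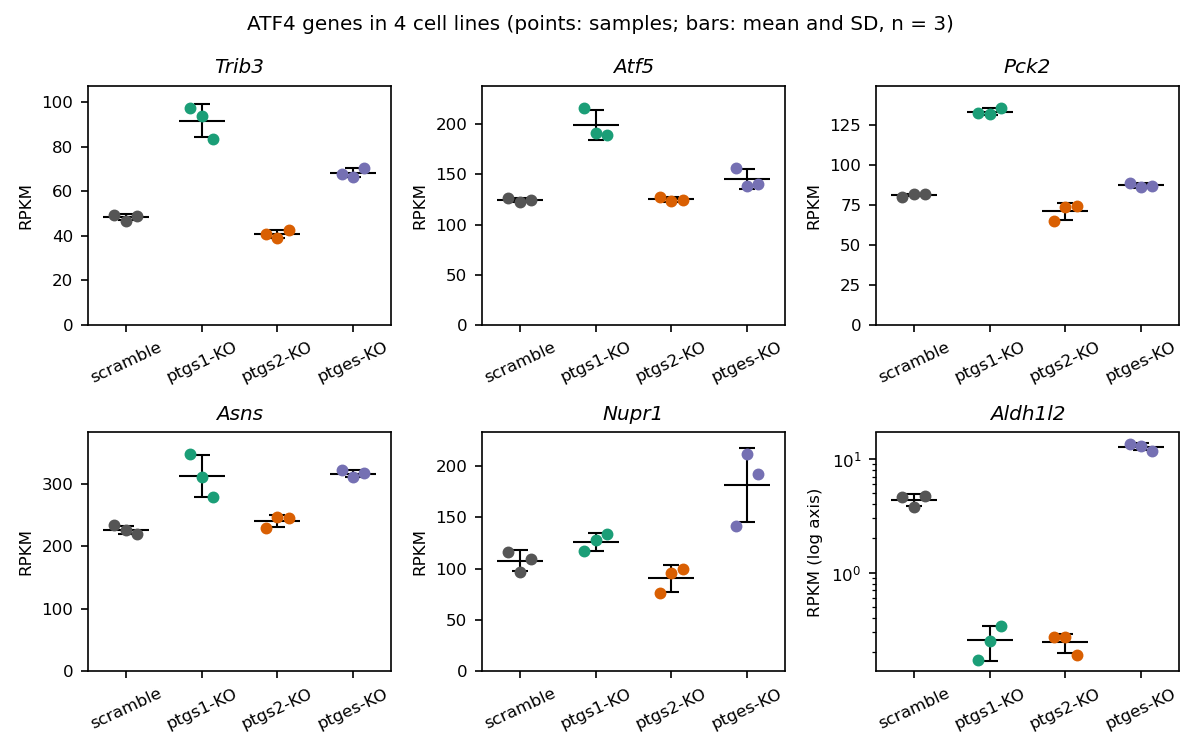
RPKM of 6 ATF4 genes in each sample of the 4 lines, with points for samples and bars for the mean and SD (n = 3), on a log axis for *aldh1l2* only. The *trib3*, *atf5*, and *pck2* points of *ptgs1*-KO cells lie above all other points, those of *nupr1* are highest in *ptges*-KO cells, and *aldh1l2* separates the lines below 0.4 RPKM from those above 3 RPKM.

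The enzymes of serine, asparagine, and cysteine synthesis did not move as a block. *Asns*, asparagine synthetase, measured 234, 225, and 220 RPKM in scramble, 347, 310, and 279 in *ptgs1*-KO, 229, 247, and 246 in *ptgs2*-KO, and 322, 311, and 317 in *ptges*-KO samples. It rose by 0.46 ± 0.08 in *ptgs1*-KO (limma, adjusted p = 0.0026) and 0.48 ± 0.08 in *ptges*-KO cells (adjusted p = 0.00088), and these samples lay above all scramble and *ptgs2*-KO samples. *Psat1*, the aminotransferase of serine synthesis, measured 556, 518, and 527 RPKM in scramble, 707, 673, and 590 in *ptgs1*-KO, 619, 657, and 669 in *ptgs2*-KO, and 815, 756, and 757 in *ptges*-KO samples. Every knockout sample was above every scramble sample, and *psat1* was the only member of either list that rose in all 3 lines, by 0.30, 0.28, and 0.54, each ± 0.08 (limma, adjusted p = 0.042, 0.046, and 0.00052). The rises in *ptgs1*-KO and *ptgs2*-KO cells were each lost in 9 of 12 fits that left out 1 library (any scramble library and *ptgs2*-KO or *ptges*-KO replicate 2 or 3 in both, *ptgs1*-KO replicate 2 in both, *ptgs1*-KO replicate 1 in the first, and *ptgs2*-KO replicate 1 in the second). The values were then 0.24 to 0.33 (adjusted p of 0.057 to 0.14) and 0.26 to 0.31 (adjusted p of 0.059 to 0.15).

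*Phgdh*, the first enzyme of serine synthesis, measured 966, 950, and 945 RPKM in scramble, 865, 827, and 705 in *ptgs1*-KO, 942, 1108, and 1107 in *ptgs2*-KO, and 1202, 1252, and 1269 in *ptges*-KO samples. It rose in *ptges*-KO cells by 0.38 ± 0.10 (limma, adjusted p = 0.011), whereas the *ptgs1*-KO samples were all below scramble without passing the test (-0.26 ± 0.10, adjusted p = 0.12). With quantile normalization the rise in *ptges*-KO cells was 0.18 and was no longer called (adjusted p = 0.074). *Cth*, which makes cysteine from cystathionine, measured 19.74, 17.39, and 15.04 RPKM in scramble, 20.6, 24.0, and 20.2 in *ptgs1*-KO, 15.2, 16.4, and 17.2 in *ptgs2*-KO, and 11.3, 12.8, and 14.2 in *ptges*-KO samples. It was the ATF4 gene that fell in *ptges*-KO cells (by 0.41 ± 0.11 on the log2 scale, limma, adjusted p = 0.018), and the call was lost without scramble replicate 1 or 2 or *ptges*-KO replicate 1 or 2 (-0.42 to -0.32, adjusted p of 0.051 to 0.082). *Psph*, the last step of serine synthesis, was not called in any line, with differences of 0.19, -0.08, and 0.30.

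Among the mitochondrial enzymes, *pck2*, which makes phosphoenolpyruvate in mitochondria, measured 80.4, 81.9, and 81.9 RPKM in scramble, 133, 132, and 136 in *ptgs1*-KO, 64.9, 73.8, and 74.8 in *ptgs2*-KO, and 89.0, 86.1, and 87.3 in *ptges*-KO samples. It rose by 0.71 ± 0.07 in *ptgs1*-KO cells (limma, adjusted p = 1.3e-05), and no lines overlapped. *Mthfd2*, a folate enzyme, measured 160, 154, and 158 RPKM in scramble, 203, 185, and 192 in *ptgs1*-KO, 186, 180, and 179 in *ptgs2*-KO, and 196, 197, and 189 in *ptges*-KO samples. It rose by 0.29 ± 0.06 in *ptgs1*-KO (limma, adjusted p = 0.0094) and 0.30 ± 0.06 in *ptges*-KO cells (adjusted p = 0.0038), and all knockout samples lay above scramble. *Shmt2*, which passes one-carbon units from serine to folate, was not called against scramble, with differences of 0.29, -0.13, and 0.05.

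*Aldh1l2*, which oxidizes formyl-tetrahydrofolate in mitochondria, had the largest differences of all 40 genes. It measured 4.64, 3.78, and 4.71 RPKM in scramble, 0.17, 0.25, and 0.34 in *ptgs1*-KO, 0.27, 0.27, and 0.19 in *ptgs2*-KO, and 13.6, 13.1, and 11.9 in *ptges*-KO samples. The means of *ptgs1*-KO and *ptgs2*-KO cells were 5.79% and 5.56% of scramble, and that of *ptges*-KO cells was 2.93 times scramble. The log2 changes were -2.10, -2.11, and 1.37, each ± 0.12 (limma, adjusted p = 8.0e-08, 8.0e-08, and 2.9e-06), and the scale understates them because the pseudocount of 1 exceeds the low values. *Ptgs1*-KO and *ptgs2*-KO samples overlapped with each other and with no other line. At the estimated depths and its longest transcript of 6027 bases, the low values would equal about 15.5 to 29.7 reads per library. *Aldh1l2* lies at chr10:83487447-83534146 (GRCm38).

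Of the UPR genes, those called in *ptgs1*-KO and *ptges*-KO cells were lower than scramble, but the share called was near that of all genes tested. In *ptgs1*-KO cells, 0 of 22 rose and 2 fell (9.09% called), against 4.65% and 4.61% of all genes (9.26% in all). In *ptgs2*-KO cells, 1 rose and 0 fell (4.55%), against 5.97% and 5.17% (11.1% in all). In *ptges*-KO cells, 0 rose and 6 fell (27.3%), against 11.9% and 14.4% (26.3% in all). The median log2 fold changes were -0.14, 0.01, and -0.14, with estimates below 0 for 19, 10, and 17 of the 22 genes, called or not. The knockout samples lay above all scramble samples for 0, 3, and 2 UPR genes (13.7%, 19.4%, and 20.3% of all genes) and below for 10, 2, and 9 (13.2%, 15.8%, and 23% of all genes). The *ptgs1*-KO replicate 3 had the lowest summed level of UPR genes, 5262 RPKM against 6084 to 8024 RPKM in the other 11 samples. The counts without it remained 0 and 2 in *ptgs1*-KO and 0 and 6 in *ptges*-KO cells and became 1 and 1 in *ptgs2*-KO cells. The count in *ptgs1*-KO cells was 7 lower with median-ratio scaling.

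The major chaperones of the ER lumen were not called against scramble in any line. *Hspa5*, the chaperone BiP, measured 1004, 977, and 922 RPKM in scramble, 811, 839, and 673 in *ptgs1*-KO, 1026, 1165, and 977 in *ptgs2*-KO, and 944, 871, and 884 in *ptges*-KO samples. All *ptgs1*-KO samples were below every other sample of *hspa5*, with a difference from scramble of -0.33 ± 0.10 (limma, adjusted p = 0.060). *Hsp90b1*, the chaperone GRP94, and *calr*, the lectin chaperone calreticulin, differed from scramble by -0.27 each in *ptgs1*-KO and by 0.21 and 0.19 in *ptgs2*-KO cells (limma, adjusted p of 0.075 and 0.13, and 0.14 and 0.27). *Canx*, the membrane lectin calnexin, differed by -0.12, 0.24, and 0.13. *Dnajc3*, *sdf2l1*, and *manf*, the other uncalled members of this group, had differences between -0.39 and 0.15.

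*Hyou1*, a nucleotide exchange factor of BiP, measured 375, 424, and 386 RPKM in scramble, 318, 277, and 243 in *ptgs1*-KO, 441, 410, and 348 in *ptgs2*-KO, and 324.9, 251.5, and 249.2 in *ptges*-KO samples. It fell by 0.50 ± 0.13 on the log2 scale in *ptgs1*-KO (limma, adjusted p = 0.024) and by 0.53 ± 0.13 in *ptges*-KO cells (adjusted p = 0.0084), and all of these samples were below all scramble and *ptgs2*-KO samples. The call in *ptgs1*-KO cells was lost without any 1 scramble library or *ptgs1*-KO replicate 2 or 3 (-0.54 to -0.41, adjusted p of 0.052 to 0.099). *Dnajb11*, a co-chaperone of BiP, measured 125, 121, and 122 RPKM in scramble, 114, 110, and 110 in *ptgs1*-KO, 143, 152, and 134 in *ptgs2*-KO, and 95.8, 93.1, and 89.4 in *ptges*-KO samples. It was the UPR gene that rose in *ptgs2*-KO cells (0.22 ± 0.07, limma, adjusted p = 0.045) and it fell in *ptges*-KO cells (-0.40 ± 0.07, adjusted p = 0.00081), with no overlap between any lines. The rise was lost in 8 of 12 fits that left out 1 library (any scramble library, *ptgs1*-KO replicate 2, *ptgs2*-KO replicate 1 or 2, or *ptges*-KO replicate 2 or 3), with values of 0.18 to 0.23 and adjusted p of 0.058 to 0.17. *Dnajb9*, another J-domain co-chaperone, measured 24.3, 21.6, and 23.1 RPKM in scramble, 27.25, 26.82, and 19.5 in *ptgs1*-KO, 20.31, 19.43, and 18.96 in *ptgs2*-KO, and 18.98, 18.01, and 17.28 in *ptges*-KO samples. Its fall in *ptges*-KO cells of 0.33 ± 0.11 on the log2 scale was just past the threshold (limma, adjusted p = 0.047). That call was lost in 9 of 12 such fits (any library but those of *ptgs1*-KO cells), with values of -0.37 to -0.29 and adjusted p of 0.051 to 0.14. The *ptgs2*-KO samples were also all below scramble without passing the test (-0.22 ± 0.11, limma, adjusted p = 0.23). The *ptges*-KO and *ptgs2*-KO lines did not differ detectably (-0.11, limma, adjusted p = 0.56).

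**Figure D3:**
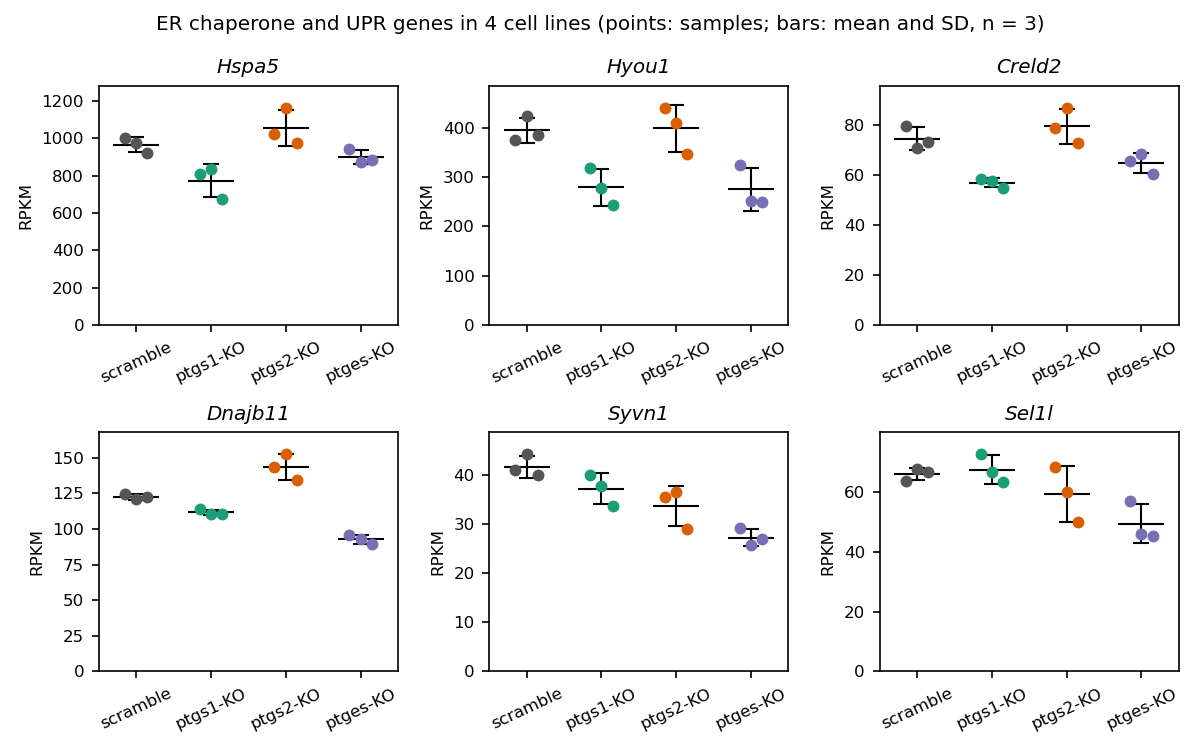
RPKM of 6 UPR genes in each sample of the 4 lines, with points for samples and bars for the mean and SD (n = 3), all axes starting at 0. The *hyou1* points of *ptgs1*-KO and *ptges*-KO cells lie below those of scramble and *ptgs2*-KO cells, *dnajb11* is highest in *ptgs2*-KO and lowest in *ptges*-KO cells, and *syvn1* is lowest in *ptges*-KO cells.

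Among the disulfide isomerases, *creld2* measured 79.6, 70.7, and 73.3 RPKM in scramble, 58.3, 57.6, and 54.9 in *ptgs1*-KO, 78.8, 86.9, and 72.8 in *ptgs2*-KO, and 65.8, 68.3, and 60.5 in *ptges*-KO samples. It fell by 0.38 ± 0.08 on the log2 scale in *ptgs1*-KO cells (limma, adjusted p = 0.0097), and these samples were below all others. Without scramble replicate 1 the call was lost (-0.33, adjusted p = 0.055). *Pdia3*, *pdia4*, and *pdia6* were not called, with differences between -0.19 and 0.10 over the 3 lines.

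ER-associated degradation, which exports misfolded proteins to the proteasome, was represented by 4 genes. *Syvn1*, its ubiquitin ligase HRD1, measured 40.9, 44.2, and 39.9 RPKM in scramble, 39.9, 37.8, and 33.7 in *ptgs1*-KO, 35.6, 36.4, and 28.9 in *ptgs2*-KO, and 29.1, 25.7, and 26.9 in *ptges*-KO samples. It had the largest fall from scramble among the UPR genes, by 0.60 ± 0.10 on the log2 scale in *ptges*-KO cells (limma, adjusted p = 0.00087). *Sel1l*, the partner of HRD1, measured 63.5, 67.4, and 66.7 RPKM in scramble, 72.5, 66.5, and 63.1 in *ptgs1*-KO, 68.4, 59.9, and 49.7 in *ptgs2*-KO, and 56.8, 46.0, and 45.3 in *ptges*-KO samples. It fell in *ptges*-KO cells by 0.42 ± 0.11 on the log2 scale (limma, adjusted p = 0.017), where all samples were below scramble, and the call was lost without scramble replicate 2 or 3 or *ptges*-KO replicate 2 or 3 (-0.41 to -0.36, adjusted p of 0.053 to 0.070). *Edem1* and *herpud1* were not called against scramble. *Herpud1* measured 104, 89.8, and 103 RPKM in scramble, 116.5, 109.42, and 89.25 in *ptgs1*-KO, 84.75, 91.24, and 88.36 in *ptgs2*-KO, and 112, 108, and 110 in *ptges*-KO samples.

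Of the sensors and factors, *eif2ak3* (PERK) measured 13.5, 13.4, and 13.4 RPKM in scramble, 13.48, 11.97, and 13.03 in *ptgs1*-KO, 14.8, 12.9, and 10.6 in *ptgs2*-KO, and 11.0, 8.59, and 9.49 in *ptges*-KO samples. It fell in *ptges*-KO cells by 0.44 ± 0.12 on the log2 scale (limma, adjusted p = 0.015), a call that was lost without *ptges*-KO replicate 2 (-0.36, adjusted p = 0.075). *Ern1*, *atf6*, and *xbp1* were not called against scramble. *Xbp1* measured 62.6, 66.0, and 66.7 RPKM in scramble and 56.7, 55.6, and 39.3 RPKM in *ptgs1*-KO samples, the lowest value being that of replicate 3.

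**Figure D4:**
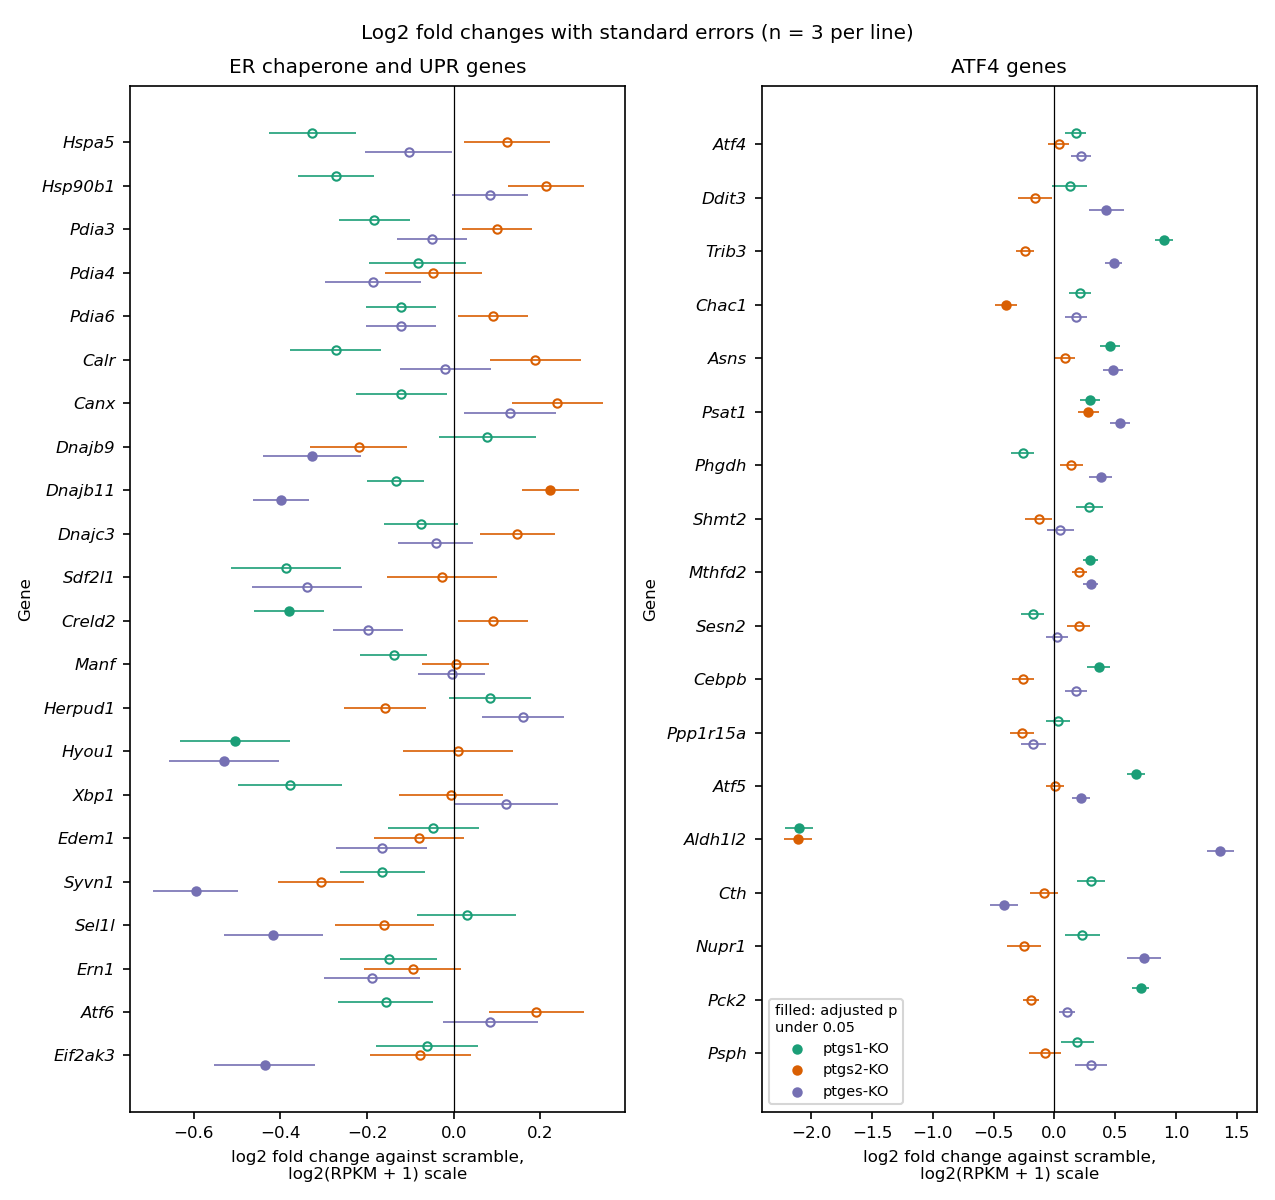
Log2 fold changes against scramble on the log2(RPKM + 1) scale (horizontal axes, which differ between the panels) for the 22 UPR genes and the 18 ATF4 genes, with bars for the standard error (n = 3 per line) and filled points for an adjusted p under 0.05. Filled points lie left of 0 for 2 and 6 UPR genes in *ptgs1*-KO and *ptges*-KO cells, and right of 0 for 7 and 9 ATF4 genes.

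The *ptges*-KO and *ptgs2*-KO lines were knocked out for enzymes that act in sequence in the synthesis of prostaglandin E2, and they were compared directly. Of the ATF4 genes, 9 had a higher level with loss of *ptges* than with loss of *ptgs2* and 0 a lower one, against 6.76% and 9.84% of all genes tested (16.6% in all), with a median log2 difference of 0.28 (-0.03 over all genes). Of the UPR genes, 1 was higher and 3 were lower, with a median of -0.17. The *ptges*-KO samples lay above all *ptgs2*-KO samples for 13 ATF4 and 1 UPR genes (14.9% of all genes) and below for 1 and 6 (19.1%). *Aldh1l2* differed most (3.47 ± 0.12, limma, adjusted p = 3.2e-10), its mean being 52.8 times that of *ptgs2*-KO cells. *Nupr1* (0.99), *trib3* (0.73), *chac1* and *ddit3* (0.58 each), *cebpb* (0.43), *asns* (0.39), *pck2* (0.30), and *psat1* (0.26) were also higher, with adjusted p of 1.8e-05 (*trib3*) to 0.049 (*psat1*). *Dnajb11* (-0.62), *hyou1* (-0.54), and *creld2* (-0.29) were lower and *herpud1* (0.32) was higher (limma, adjusted p = 2.6e-05, 0.011, 0.028, and 0.034).

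Same-numbered samples of these lines deviated together, with correlations across genes of 0.566, 0.112, and 0.254 for the 3 pairs. With scramble, same-numbered samples correlated at -0.341 to -0.175 for *ptges*-KO and -0.276 to -0.119 for *ptgs2*-KO cells. A shared number is therefore not shown to be a batch of all lines. With the replicate number as a block, *ptges*-KO against *ptgs2*-KO cells gave 10 higher and 0 lower ATF4 genes. There were 1 higher and 5 lower UPR genes, and *psat1* was no longer called. With the block and only these 2 lines in the model, 13 ATF4 genes were higher and 2 lower, and 1 UPR gene was higher and 8 were lower, with 3827 of all genes called against 1873 in the fit without the block. The number of UPR genes called depended on the scaling and the libraries. It was 1 higher and 7 lower with quantile normalization, and it was 2 without *ptgs2*-KO replicate 2 or *ptges*-KO replicate 2, 1 without *ptges*-KO replicate 3, and 7 without *ptgs2*-KO replicate 3 or *ptges*-KO replicate 1. *Dnajb11* was called in each of these fits. The call was lost for *hyou1* without *ptges*-KO replicate 2 or 3, for *ddit3* without *ptgs2*-KO replicate 1 or *ptges*-KO replicate 2, for *creld2* without *ptgs2*-KO replicate 1 or 2 or *ptges*-KO replicate 3, for *herpud1* without any 1 library of these lines, and for *psat1* without any 1 library except *ptgs1*-KO replicates 1 and 3. The values were then -0.48 and -0.47 (*hyou1*), 0.53 and 0.45 (*ddit3*), -0.29 to -0.22 (*creld2*), 0.29 to 0.34 (*herpud1*), and 0.22 to 0.28 (*psat1*), with adjusted p of 0.051 to 0.15.

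The *ptgs2*-KO and *ptgs1*-KO lines were also compared in the same fit. This comparison was chosen after the values were seen, because these lines differed in opposite directions in the 2 lists, so its direction is a description of the lines. In *ptgs2*-KO cells, 10 of 22 UPR genes were higher and 0 lower, and 2 of 18 ATF4 genes were higher and 10 lower, against 12.1% and 11.6% of all genes tested (23.6% in all). The samples did not overlap for 12 UPR genes that were higher and 0 that were lower, and for 2 ATF4 genes that were higher and 11 that were lower (18.2% and 17% of all genes). The median log2 difference was 0.25 for the UPR genes, -0.33 for the ATF4 genes, and 0.00 for all genes tested. The UPR genes that were higher were the chaperones *hspa5* (0.45), *hsp90b1* (0.48), *calr* (0.46), *canx* (0.36), *dnajb11* (0.36), and *hyou1* (0.52), the isomerases *pdia3* (0.28) and *creld2* (0.47), and the factors *xbp1* (0.37) and *atf6* (0.35). None of the 4 genes of ER-associated degradation was called (-0.24 to -0.03). The ATF4 genes that were lower included *trib3* (-1.14), *pck2* (-0.90), *atf5* (-0.66), *cebpb* (-0.62), and *chac1* (-0.61), and those that were higher were *phgdh* (0.40) and *sesn2* (0.38). *Aldh1l2*, low in both lines, did not differ detectably (-0.01, 95% interval -0.26 to 0.24). The remaining pair, *ptges*-KO against *ptgs1*-KO, gave 2 higher and 5 lower UPR genes and 4 higher and 4 lower ATF4 genes, against 13.2% and 17% of all genes tested (30.2% in all).

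Without the *ptgs1*-KO replicate 3, the UPR genes were 7 higher and 2 lower and the ATF4 genes 2 higher and 9 lower. *Pdia3*, *canx*, *xbp1*, and *atf6* then lost the call, with values of 0.20 to 0.28 and adjusted p of 0.058 to 0.12, as did *nupr1* (-0.44, adjusted p = 0.075). Without *ptgs2*-KO replicate 2 the UPR genes called were 6, and the same 4 UPR genes lost the call (0.23 to 0.33, adjusted p of 0.087 to 0.13). With median-ratio scaling the UPR genes were 12 higher and 2 lower, and with quantile normalization 10 higher and 2 lower.

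The genes with a motif were also followed as groups. The 5 ATF4 genes with the amino acid response element had a median log2 fold change of 0.46 in *ptgs1*-KO, -0.24 in *ptgs2*-KO, and 0.48 in *ptges*-KO cells, and 3, 0, and 3 of them rose and 0, 1, and 0 fell. The 11 matched ATF4 genes without it had medians of 0.19, 0.01, and 0.22, and 4, 1, and 5 of them rose and 0 fell. *Aldh1l2*, which fell in *ptgs1*-KO and *ptgs2*-KO cells, and *cth*, which fell in *ptges*-KO cells, had no matched promoter. They are in neither group. Of all genes tested, 4.65%, 5.97%, and 11.9% rose and 4.61%, 5.17%, and 14.4% fell. In *ptges*-KO against *ptgs2*-KO cells all 5 genes with the element and 3 of 11 without it were higher, against 6.76% of all genes. The UPR genes with the ER stress element were those printed above and *hsp90b1*, *dnajc3*, and *pdia6*. These 8 genes had medians of -0.22, 0.13, and -0.07 in the 3 lines, with *creld2* called in *ptgs1*-KO and *syvn1* in *ptges*-KO cells. The 11 matched UPR genes without the element had medians of -0.08, -0.08, and -0.19, and 0, 1, and 0 of them rose and 0, 0, and 4 fell. *Hyou1*, which fell in *ptgs1*-KO and *ptges*-KO cells, had no matched promoter and is in neither group. Genes with and without a motif were not compared by a test.

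Other genes of the same pathways were counted on a separate list. Of 43 further ATF4 and amino acid response genes tested, 12 rose and 2 fell in *ptgs1*-KO, 5 rose and 3 fell in *ptgs2*-KO, and 13 rose and 1 fell in *ptges*-KO cells, and 10 were higher and 0 lower when *ptges*-KO was set against *ptgs2*-KO. The shares of all genes tested that rose and fell were 4.65% and 4.61% in *ptgs1*-KO, 5.97% and 5.17% in *ptgs2*-KO, and 11.9% and 14.4% in *ptges*-KO cells, and 6.76% and 9.84% were higher and lower in the last comparison. These shares also stand beside the groups that follow. Of 13 genes of tRNA charging and export, 4, 3, and 5 rose and 0 fell in the 3 lines, led in *ptges*-KO cells by *nars*, asparaginyl-tRNA synthetase (0.65 ± 0.07, limma, adjusted p = 2.2e-05). Of 9 genes of amino acid metabolism, 3, 1, and 6 rose and 2, 0, and 0 fell. *Pycr1*, an enzyme of proline synthesis, rose by 0.65 in *ptgs1*-KO and 0.90 in *ptges*-KO cells (limma, adjusted p = 0.00045 and 1.7e-05), each ± 0.09. *Bcat1*, which transaminates branched-chain amino acids, fell by 0.54 on the log2 scale in *ptgs1*-KO cells and rose by 0.69 in *ptgs2*-KO and 0.67 in *ptges*-KO cells (limma, adjusted p = 0.0065, 0.0014, and 0.00072). Of 9 amino acid transporters, 2, 0, and 0 rose and 0, 1, and 1 fell. *Slc7a11*, the cystine transporter, rose in *ptgs1*-KO cells (0.59 ± 0.13, adjusted p = 0.013), and *slc1a5*, a glutamine transporter, fell in *ptgs2*-KO and *ptges*-KO cells (-0.42 and -0.45, adjusted p = 0.018 and 0.0057).

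**Figure D5:**
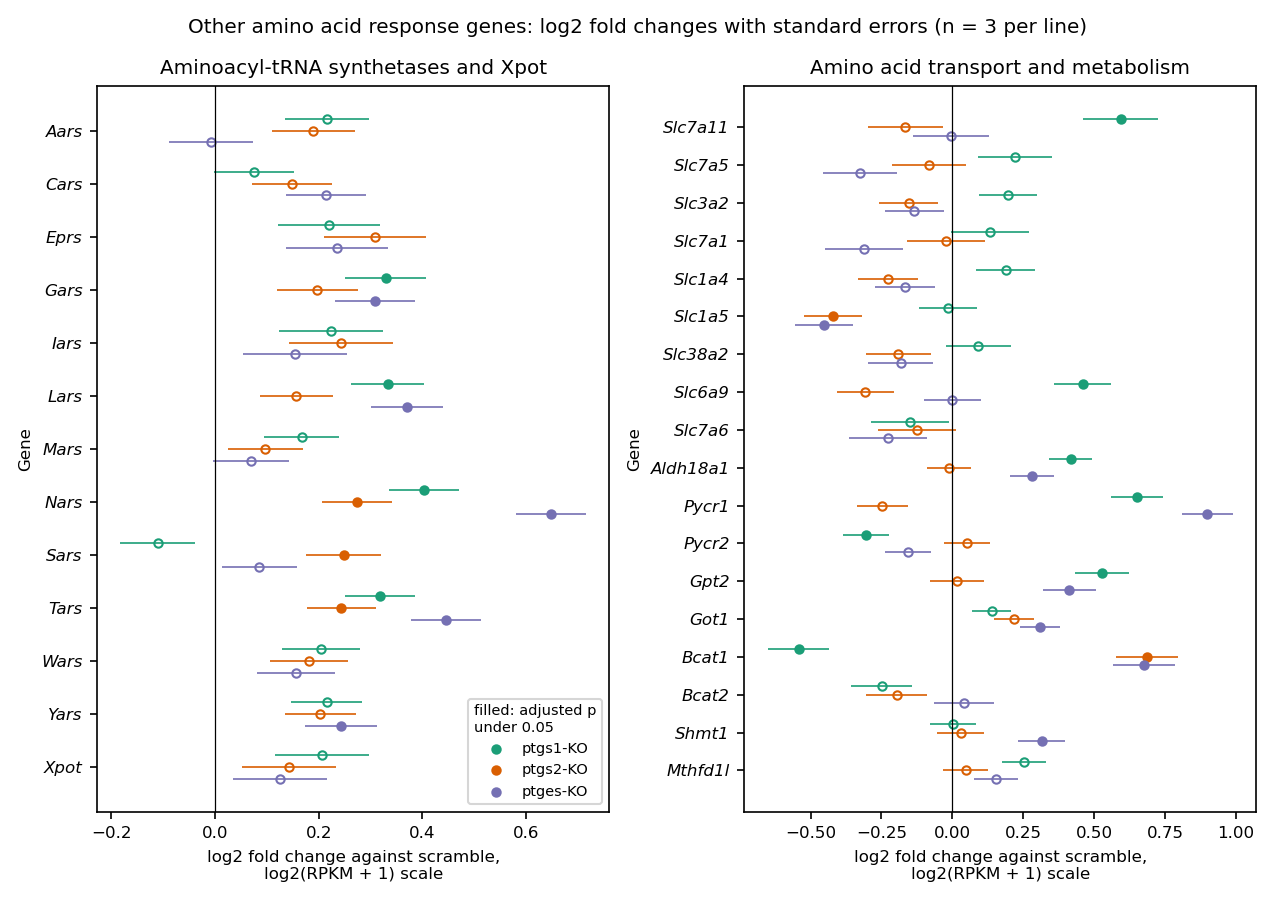
Log2 fold changes against scramble on the log2(RPKM + 1) scale (horizontal axes, which differ between the panels) for genes of tRNA charging and of amino acid transport and metabolism, with bars for the standard error (n = 3 per line) and filled points for an adjusted p under 0.05. *Nars* reaches 0.65 and *pycr1* 0.90 in *ptges*-KO cells, and *bcat1* lies at -0.54 in *ptgs1*-KO cells and to the right of 0.6 in the other lines.

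Of 47 further ER genes tested, 0 rose and 3 fell in *ptgs1*-KO, 2 rose and 1 fell in *ptgs2*-KO, and 6 rose and 6 fell in *ptges*-KO cells, and 4 were higher and 3 lower when *ptges*-KO was set against *ptgs2*-KO. Of all genes tested, 9.26%, 11.1%, and 26.3% were called against scramble in the 3 lines and 16.6% in the last comparison. The share of this list that was called was below each of these. In *ptges*-KO cells the largest rise was that of *sec62*, of the protein translocation machinery (0.63 ± 0.08, limma, adjusted p = 9.0e-05), followed by *ero1l*, the oxidase that recharges disulfide isomerases (0.43 ± 0.09, adjusted p = 0.0047). The largest falls were those of *pdia5*, a disulfide isomerase (-0.67 ± 0.10, adjusted p = 0.00044), *atf6b*, a relative of ATF6 (-0.61 ± 0.11, adjusted p = 0.0014), and *edem3*, of ER-associated degradation (-0.55 ± 0.12, adjusted p = 0.0058). In *ptgs1*-KO cells, *ssr2* and *ssr3*, subunits of the translocon-associated complex, fell by 0.54 and 0.34 on the log2 scale (limma, adjusted p = 0.012 and 0.023).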

How the data were processed

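RNA-seq values of 12 samples (4 groups of 3, assigned by their labels) were used as the authors deposited them, as RPKM to 2 decimals on genome build mm10 per the labels; the study's methods call them normalized counts, and the aligner and counter are not given in the sources used here. The sources differ on the RNA extraction and library kits. Reads were 101 bp and paired. Sums of the values were 878504 to 903881 per sample, so another scaling with a fixed total is possible. Depth was estimated from the steps of low values, and counting intervals were not computed.

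The test was limma 3.58.1 in R 4.3.3 (trend, all 12 samples, no block) on log2(RPKM + 1), a pseudocount of 1, for the 11282 genes whose mean reached 1 RPKM. P-values were adjusted by Benjamini-Hochberg across these genes, and 0.05 was the threshold for a call. The steps were checked on simulated data. The members and lists were chosen with earlier results of these data known. Values in every sample are given for members called against scramble or in *ptges*-KO against *ptgs2*-KO cells. For members called only in *ptgs2*-KO against *ptgs1*-KO cells they are mostly not given. From the other lists, at most the 3 largest rises and falls are named. Motifs were searched in Python 3.11.15. The main fit used no pairing for any comparison. A pairing of same-numbered samples was considered only for *ptges*-KO and *ptgs2*-KO cells, where every pair correlated above 0.1, a hint from the data and not from the labels. It entered only in alternative fits. Alternatives covered the pseudocount, filter, scaling, block, groups in the model, the Tukey test, and each library left out. Scaling without the 20 highest genes, the block within 2 lines, and the comparison of *ptgs2*-KO with *ptgs1*-KO cells were added after the data were seen.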

Additional observations from a re-analysis of the deposited data

Results flagged for a closer look

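*Aldh1l2* and *dnajb11* were called in opposite directions against scramble in a pair of lines. They were picked for this, so the differences between those lines are given here as a description. The limma p-values printed above for *ptges*-KO against *ptgs2*-KO cells come from the comparison of all genes. They do not account for this choice. *Aldh1l2* in *ptges*-KO cells exceeded its level in *ptgs2*-KO cells by 3.47 ± 0.12 on the log2(RPKM + 1) scale, with changes of 1.37 and -2.11 against scramble. It exceeded its level in *ptgs1*-KO cells by 3.46 ± 0.12, with changes of 1.37 and -2.10. *Dnajb11* differed between the *ptges*-KO and *ptgs2*-KO lines by -0.62 ± 0.07, with changes of -0.40 and 0.22, and its rise in *ptgs2*-KO cells was lost in 8 of 12 fits that left out 1 library. Groups of 3 were too small for the test of outlying samples.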

How the results depend on the processing

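Of 200 member comparisons, 65 were called, 26 of them under every alternative, and 39 lost the call under at least 1; 0 called values changed sign. Another 44 were called under some alternative only. Counted over every alternative fit, uncalled estimates changed sign 70 times, where 1 member comparison can count more than once. In *ptgs1*-KO cells the 2 UPR genes called became 1 without a filter, 7 with median-ratio scaling, 5 without the 20 highest genes, 0 by the Tukey test, and 0 to 3 with 1 library left out; the 8 ATF4 genes became 5 by Tukey (6 to 9). In *ptgs2*-KO cells the 1 UPR gene became 0 at a mean of 10, with 2 groups in the model, or by Tukey, and 2 with median-ratio scaling, quantile normalization, the replicate block, or without the 20 highest genes (0 to 2); the 3 ATF4 genes became 1 at a mean of 10 (where *aldh1l2* was not tested) or by Tukey, 7 with median-ratio scaling, and 6 with quantile normalization or without the 20 highest genes (2 to 5). In *ptges*-KO cells the 6 UPR genes became 2 and the 10 ATF4 genes 6 by Tukey (3 to 6 and 7 to 11). For *ptges*-KO against *ptgs2*-KO, the 4 UPR genes became 8 with quantile normalization, 1 by Tukey, and 9 without the 20 highest genes or with the replicate block and 2 groups in the model (1 to 7); the 9 ATF4 genes became 4 by Tukey and 15 with that block (7 to 11). For *ptgs2*-KO against *ptgs1*-KO, the 10 UPR genes became 6 with 2 groups in the model and 3 by Tukey (6 to 11), and the 12 ATF4 genes 5 by Tukey (8 to 12). The Tukey test accounted for 38 lost calls. Among them were *nupr1* in *ptges*-KO (Tukey, adjusted p = 0.070), *chac1* in *ptgs2*-KO (0.29), and *asns* in *ptgs1*-KO cells (0.055). Without a filter *hyou1* and *psat1* lost the call in *ptgs1*-KO, *psat1* in *ptgs2*-KO, and *dnajb9* and *ddit3* in *ptges*-KO cells (adjusted p of 0.052 to 0.080). The cause was not tested.

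Over all genes, the calls against scramble were 1045 in *ptgs1*-KO (582 at a mean of 10, 1570 with quantile normalization, 361 by Tukey, 639 to 1161 with 1 library left out), 1257 in *ptgs2*-KO (1929 with median-ratio scaling, 420 by Tukey, 721 to 1552), and 2969 in *ptges*-KO cells (1151 by Tukey, 1945 to 3271). They were 1873 for *ptges*-KO against *ptgs2*-KO (639 by Tukey, 3827 with the block and 2 groups, 1107 to 2236). Without the 20 highest genes, 1054 rose and 2354 fell in *ptges*-KO cells (1342 and 1627 in the main analysis), and 687 were higher and 1747 lower than in *ptgs2*-KO cells (763 and 1110). No scaling moved the median of all genes by more than 0.1. No comparison was paired in the main fit. As an alternative, the replicate block gave 1105 calls over all genes in *ptgs1*-KO, 1365 in *ptgs2*-KO, and 3099 in *ptges*-KO cells. At the estimated depths and its longest transcript, the low values of *aldh1l2* would equal about 15.5 to 29.7 reads per library. Reads were not estimated for other members.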
